A study of Mus musculus with 11 samples.

Results

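The genes described here encode the enzymes and readers that write, remove and recognise histone acetylation and histone methylation, together with the subunits of the Polycomb complexes. They were 47 listed genes of the 21887 protein-coding genes placed on the mouse chromosomes: 9 acetyltransferases, 11 deacetylases, 2 bromodomain readers of the BET family, 5 members of the KMT2 family of H3K4 methyltransferases, 7 demethylases, 5 Polycomb repressive complex 2 (PRC2) genes and 8 Polycomb repressive complex 1 (PRC1) genes. A gene was read in each library for an end peak, a called peak with at least 1 base within 1 kb of either end of the gene, and for other peaks, the remaining peaks in the gene body and the 20 kb on each side. All coordinates are mm10 (GRCm38).

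The libraries came from ChIP-seq on glands of the mouse stomach. H3K27ac, the acetylation of active promoters and enhancers, was measured in 2 libraries of each of 4 genotypes, and H3K4me3, the methylation of active and poised promoters, in 1 library of each of 3. The genotypes were wild type, Atp4bCre; Rosa26NICD (here NICD), Atp4bCre; Rosa26NICD; Arid1aflox/+ (1-allele) and Atp4bCre; Rosa26NICD; Arid1aflox/flox (2-allele). The third H3K4me3 library is labelled Het in its title and Arid1aflox/flox in its genotype, so it is called Arid1a-floxed here with the number of alleles unresolved. Cre driven from Atp4b, a subunit gene of the parietal cell proton pump, switches on the active intracellular part of Notch (NICD) and removes floxed Arid1a, a subunit of the SWI/SNF (BAF) remodelling complex, in cells with Cre; all 3 non-wild-type genotypes carried the Cre and NICD alleles. The share of gland cells with Cre, and the age and sex of the mice, are not given in the sources used here. Per the labels' protocols epithelial pellets were pooled, so libraries of a group may not be separate animals, and a weaker peak in fewer cells cannot be told apart from less mark in each cell.

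Lysine acetylation of histone tails is written by acetyltransferases such as p300 and CBP, the main writers of H3K27ac, bound by bromodomain proteins and removed by deacetylases. KMT2 enzymes methylate H3K4 and the KDM1 and KDM5 enzymes remove that methylation. PRC2 methylates H3K27, which bars acetylation of the same residue, and PRC1 binds the methylated lysine and ubiquitinates histone H2A; KDM6 enzymes remove H3K27 methylation. Most of these proteins are made in nearly all cells from promoters rich in CpG, and the peaks at their genes are therefore read here beside those of all other genes.

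Promoter sequence was taken from RefSeq (GRCm38.p6), which held 54 promoters of 38 of the 47 members; Hdac1, Hdac3, Hdac10, Kmt2b, Kmt2e, Kdm5a, Kdm6b, Kat6a and Cbx2 had no entry. The median member promoter held 23.5 CpG in 300 bases (250 before and 50 after the start), against 13 over all 21263 promoters, and 74.1% of member promoters against 46.8% of all held at least 15. The 250 bases before the start are shown for 6 members, from CpG-rich to CpG-free: 5 whose calls differ between groups in the comparisons below, and Hdac9, which has no H3K27ac peak. CpG dinucleotides are in capitals, and each sequence is written 5′ to 3′ on the strand of the gene. Brd3 (chr2:27475399-27475648, minus strand) and Kmt2a (chr9:44881290-44881539, minus) are the richest of the 6, with 37 and 29 CpG in these 250 bases, Cbx8 (chr11:119040914-119041163, minus) has 22 and Hdac6 (chrX:7947890-7948139, minus) has 17. Hdac8 (chrX:102505159-102505408, minus) has 6, and the upstream promoter of Hdac9 (chr12:34917096-34917345, minus) has 0.
Brd3: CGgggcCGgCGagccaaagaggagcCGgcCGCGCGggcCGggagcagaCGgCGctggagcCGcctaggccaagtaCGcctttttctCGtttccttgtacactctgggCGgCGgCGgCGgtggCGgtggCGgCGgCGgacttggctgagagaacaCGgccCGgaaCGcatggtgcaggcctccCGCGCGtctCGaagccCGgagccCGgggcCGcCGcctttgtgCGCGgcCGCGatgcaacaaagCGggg
Kmt2a: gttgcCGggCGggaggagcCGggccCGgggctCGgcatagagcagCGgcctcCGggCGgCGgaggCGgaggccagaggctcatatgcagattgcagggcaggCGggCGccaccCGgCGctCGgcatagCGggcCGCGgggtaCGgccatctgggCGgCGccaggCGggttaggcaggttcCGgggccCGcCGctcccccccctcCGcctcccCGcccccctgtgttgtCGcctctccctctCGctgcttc
Cbx8: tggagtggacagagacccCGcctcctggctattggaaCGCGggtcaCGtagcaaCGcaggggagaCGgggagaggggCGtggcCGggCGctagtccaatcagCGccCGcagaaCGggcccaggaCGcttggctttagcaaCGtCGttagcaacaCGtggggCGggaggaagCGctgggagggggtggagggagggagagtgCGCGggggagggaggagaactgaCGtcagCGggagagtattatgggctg
Hdac6: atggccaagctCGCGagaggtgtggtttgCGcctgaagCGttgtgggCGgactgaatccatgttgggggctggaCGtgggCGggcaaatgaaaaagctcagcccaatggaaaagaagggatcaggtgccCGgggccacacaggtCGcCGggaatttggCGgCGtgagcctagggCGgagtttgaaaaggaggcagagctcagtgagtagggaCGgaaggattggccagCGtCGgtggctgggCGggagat
Hdac8: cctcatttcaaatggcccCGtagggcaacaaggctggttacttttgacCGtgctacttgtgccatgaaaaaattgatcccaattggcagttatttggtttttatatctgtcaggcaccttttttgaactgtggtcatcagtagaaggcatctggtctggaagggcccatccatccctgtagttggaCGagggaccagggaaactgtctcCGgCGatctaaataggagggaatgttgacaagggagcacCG
Hdac9: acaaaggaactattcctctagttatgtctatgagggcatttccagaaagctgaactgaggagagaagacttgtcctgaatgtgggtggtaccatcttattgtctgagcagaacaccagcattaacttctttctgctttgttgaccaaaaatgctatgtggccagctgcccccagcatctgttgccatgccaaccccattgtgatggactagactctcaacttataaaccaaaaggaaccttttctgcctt

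The first 5 of these starts had H3K27ac peaks in some of the 8 libraries and the Hdac9 starts in none. Over the 38 members, the 17 with a peak within 1 kb of a RefSeq start in all 8 H3K27ac libraries had a median of 29.0 CpG (26.0 for the 2542 other genes so called), and the 20 called in 1 to 7 libraries had 25.5 (21.0 for 7296 other genes). Hdac9, the member called in none, had 3 at its richer start, which was also the median of the 7616 other genes called in none. A set of 8 short motifs was searched on both strands of the 300 bases. CCAAT, the box bound by NF-Y, lay in 23 of 54 member promoters (42.6%, against 38.2% of all promoters), CCGGAAG, a site form of ETS factors, in 5 (9.26% against 11.6%), and GTGGGAA, the form bound by the Notch effector RBPJ, in 0 (6.07% of all promoters). TTTGGCGC, a form of the E2F site, was found at Ezh2, a second form, TTTCCCGC, at Suz12, GCGCATGCG (NRF1) at Brd2, AAGATGGCG (YY1) at Brd2 and Kdm5c, and TGACGTCA (CRE) at Cbx8; these lay in 0.635%, 1.41%, 2.35%, 1.83% and 2.23% of all promoters. A match describes letters only, and binding was not measured.

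The lists differed widely in length, from 5165 and 7602 peaks in the 1-allele libraries to 41405 and 25442 in NICD, with 20590 and 18360 in wild type and 15362 and 14373 in the 2-allele libraries. The H3K4me3 lists held 17558 (wild type), 39420 (NICD) and 5175 (Arid1a-floxed) peaks. Tags after duplicate removal were 7.96 to 20.81 M in the 9 libraries that state them; NICD replicate 2 had the fewest and a redundant rate of 0.52. Arid1a itself had an H3K27ac end peak in every library but those of the 1-allele group, which does not test the deletion, since a promoter peak need not lie in the floxed part. Of 8 epithelial markers, 6 to 8 had an H3K27ac end peak in the wild-type, NICD and 2-allele libraries and 1 in each 1-allele library; of 8 parietal markers 4 and 2 did in wild type and 0 or 1 in the other 6. Of 7 surface pit markers 4 and 5 did in wild type, 5 and 3 in NICD, 2 and 1 in 1-allele and 3 and 1 in 2-allele libraries. Of 7 mucous neck and chief markers 2 and 1, 4 and 2, 0 and 0, and 1 and 1 did. No endothelial or endocrine marker was called for H3K27ac, and 0 to 3 of 8 blood markers and 0 to 2 of 8 fibroblast and muscle markers were. The NICD H3K4me3 library called 2 of 7 endothelial, 4 of 7 endocrine, 3 of 8 blood and 6 of 8 fibroblast and muscle markers. The shifts in marker calls move with the genotypes compared below, and their part in the results was not tested.

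End peaks were more frequent at the members than at other genes in every library. H3K27ac end peaks were called at 37 and 37 of the 47 members in wild type, 41 and 38 in NICD, 22 and 22 in the 1-allele libraries, and 37 and 36 in the 2-allele libraries. As group means this was 78.7 ± 0.0% in wild type, 84.1 ± 4.5% in NICD, 46.8 ± 0.0% in 1-allele and 77.7 ± 1.5% in 2-allele glands (SD, n = 2 each), against 41.9 ± 1.6%, 50.0 ± 4.0%, 20.9 ± 6.8% and 41.8 ± 1.0% of other protein-coding genes. The 1-allele libraries were the low ones for members and for other genes alike, and their counts did not overlap those of any other group. H3K4me3 was called at 37, 41 and 21 members in the wild-type, NICD and Arid1a-floxed libraries (78.7%, 87.2% and 44.7%, against 47.3%, 63.5% and 19.4% of other genes). Wilson 95% intervals for these member shares were 65.1 to 88.0% at 37 members, 33.3 to 60.8% at 22 and 31.4 to 58.8% at 21; they cover counting error only.

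**Figure D1:**
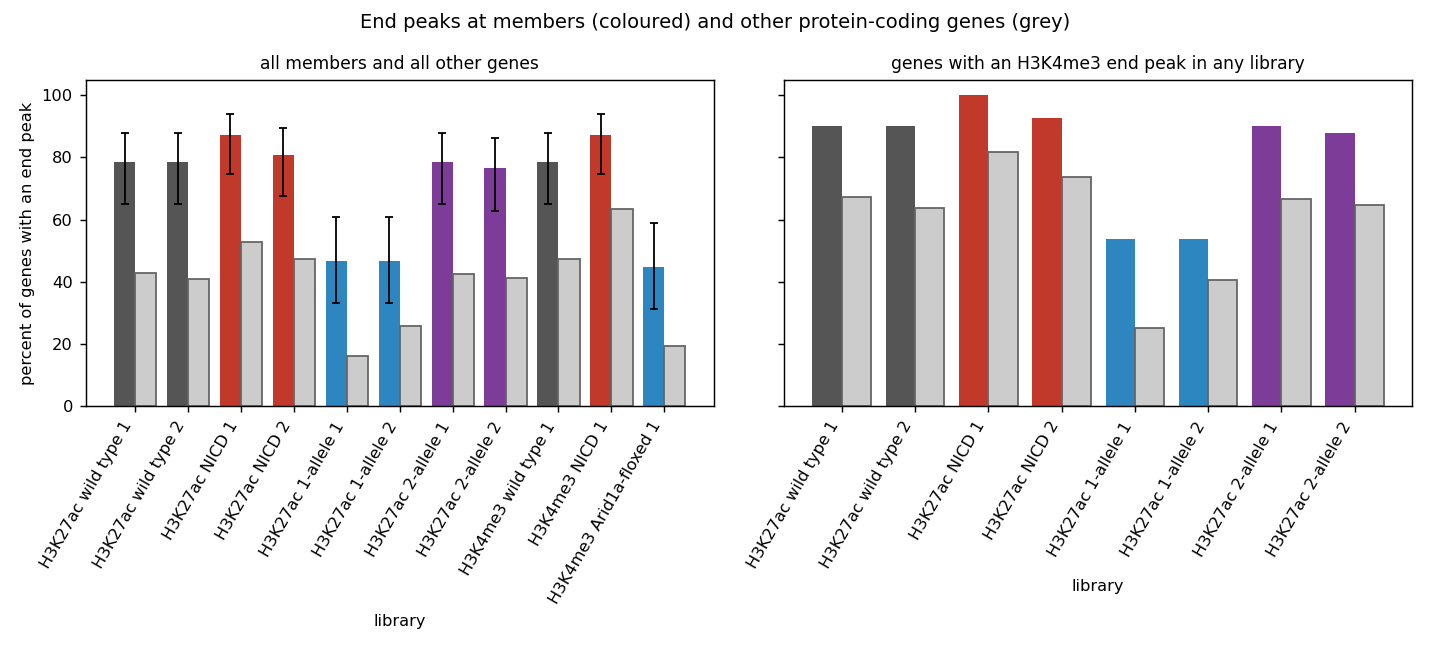
Percent of genes with an end peak in each library, for members (bars coloured by genotype) and for other protein-coding genes (grey bars). The left panel shows all genes in all 11 libraries, with Wilson 95% intervals on the member shares, and the right panel the genes with an H3K4me3 end peak in any library, in the 8 H3K27ac libraries; the member bar is the higher of each pair, and among the H3K27ac libraries the 1-allele bars are the lowest.

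Members also exceeded other genes where the comparison was limited to genes with an H3K4me3 end peak in any library. Nearly all of these genes (all 41 members and 99.9% of the others) were called in the NICD H3K4me3 library. The 6 members left out had no H3K27ac end peak in any library, so the limit changes the number of members compared and not the number called. Among those left out, Brd3, Hdac4, Hdac7 and Cbx7 had H3K4me3 peaks at RefSeq starts. Of the 41 members with an H3K4me3 end peak in any library, 90.2% and 90.2% carried H3K27ac in wild type, 100% and 92.7% in NICD, 53.7% and 53.7% in the 1-allele and 90.2% and 87.8% in the 2-allele libraries. Other genes chosen in the same way stood at 67.3% and 63.9%, 81.7% and 73.8%, 25.3% and 40.5%, and 66.7% and 64.6%. With each list cut to its 5165 strongest peaks the members with an end peak numbered 20 and 23 in wild type, 23 and 23 in NICD, 22 and 16 in the 1-allele and 24 and 23 in the 2-allele libraries, so that the gap to the 1-allele group seen with whole lists was not present for 1-allele replicate 1 at equal length. The share of other genes at that length ran from 16.1% to 21.6%. Both 2-allele lists have no scores and were cut in file order, along which median peak width ran from 690 to 250 bp and from 654 to 269 bp between the first and the last of 10 equal parts; in the scored lists, ordered by q-value, it fell in the same direction.

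End peaks were called in all 8 H3K27ac libraries at 16 members (34.0%, against 13.4% of all genes): Ep300, Kat2b, Kat7, Hdac2, Kmt2c, Kmt2d, Kmt2e, Kdm1a, Kdm5b, Kdm5c, Ezh1, Ezh2, Suz12, Jarid2, Ring1 and Rnf2. The 6 wild-type, NICD and 2-allele libraries all called 30 members (63.8% against 34.1%). All 3 H3K4me3 libraries called 21 (44.7% against 19.3%), and all 11 libraries called 12 (25.5% against 7.57%). At the other extreme, Hdac4, Hdac7, Hdac9, Brd3, Kdm6b and Cbx7 had no end peak of either mark in any library (12.8%, where 45.5% of all genes had none for H3K27ac and 36.4% none for H3K4me3). Of these 6, Hdac4, Hdac7, Brd3 and Cbx7 had H3K27ac peaks at RefSeq starts inside the gene body, as described below. Read at RefSeq starts, 34, 34, 37, 36, 21, 25, 35 and 33 of 38 members had an H3K27ac peak in the wild-type, NICD, 1-allele and 2-allele libraries in turn, against 17.5% (1-allele replicate 1) to 55.0% (NICD replicate 1) of 17454 other genes.

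The groups were compared by counting members with an end peak in both libraries of a group and in neither of the other; with 2 libraries against 2, an exact permutation test cannot go below p = 0.33, so the counts are set beside the share of all genes that separate in the same way. Between NICD and wild type, 1 member separated towards NICD, Hdac8 (2.13% of members, against 3.83% of all genes), and 0 towards wild type (0.114%). Between NICD and 1-allele glands, 12 members separated towards NICD (25.5%, against 18.8%): Kat5, Kat8, Hdac1, Hdac3, Hdac5, Hdac6, Hdac8, Hdac11, Kmt2a, Kdm2b, Cbx8 and Phc2. None separated towards the 1-allele group (0.00914%). Between NICD and 2-allele glands, Hdac6 separated towards NICD (3.80% of all genes) and 0 members in the other direction (0.0228%). Between the Arid1a groups, Kat5, Kat8, Hdac11, Kmt2a, Cbx8 and Phc2 separated towards the 2-allele group (12.8%, against 12% of all genes) and 0 towards the 1-allele group (0.0411%). The member shares were thus near those of all genes in each comparison, with the widest gap in 1-allele against NICD.

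Several of these calls changed with the list length or the choice of end. With all H3K27ac lists cut to 5165 peaks, 2 members, Kat5 and Hdac11, separated NICD from 1-allele glands (2.39% of all genes), the same 2 separated NICD from 2-allele glands (1.18%), Kat5 separated NICD from wild type (1.90%), and Kat8 separated 2-allele from 1-allele glands (2.82%). The Kat5 peak in these counts is at the end it shares with Rnaseh2c, not at its RefSeq starts. At 14373 peaks Hdac8 and Hdac6 no longer separated, and Hdac5 separated wild type from NICD (0.589%). Read at RefSeq starts, 9 of 38 members separated NICD from 1-allele glands (23.7%, against 19.3%), with Brd3 and Cbx7 gained and Kat5, Kdm2b and Phc2 not among them; Hdac1 and Hdac3 have no RefSeq entry. Hdac8 again separated NICD from wild type (3.78%), Cbx7 and Hdac6 separated NICD from 2-allele glands (3.69%), and 5 members separated 2-allele from 1-allele glands (13.2%, against 12.6%). In the reverse of these 4 directions 0 of the 38 members separated (0.126%, 0.0229% and 0.0343% of genes, and 0.00572% for 1-allele against NICD).

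**Figure D2:**
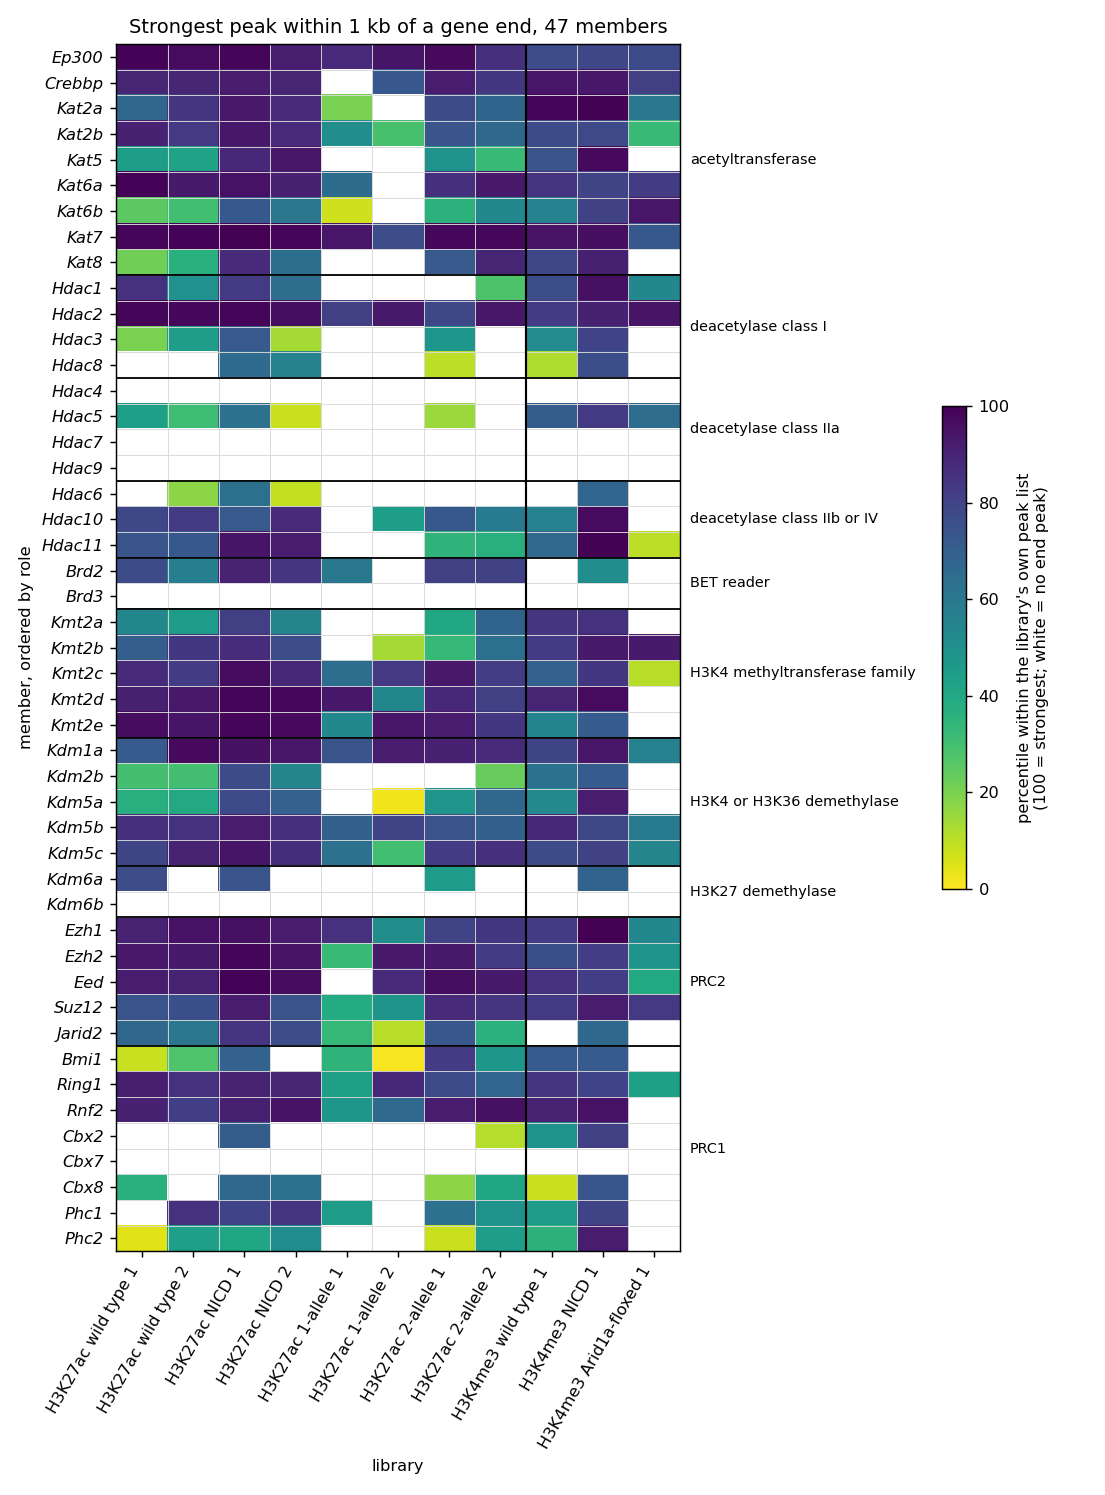
Percentile of the strongest end peak within its own list (colour, 0 to 100, with 100 the strongest and white for no end peak) for the 47 members, ordered by role, in the 8 H3K27ac and 3 H3K4me3 libraries. The 1-allele and Arid1a-floxed columns hold most of the white cells, and Hdac4, Hdac7, Hdac9, Brd3, Kdm6b and Cbx7 are white throughout. In the 2-allele columns, whose lists have no scores, the percentile is the position in file order.

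The strength of an end peak is given below as its percentile within the list of its own library, where 100 is the strongest peak. For the unscored 2-allele lists the percentile is the position in file order, so it is not a measured strength. Because the lists differ in length, a percentile places a member within a library and does not measure change between libraries. Among the acetyltransferases, all 9 had an end peak in each wild-type, NICD and 2-allele library (34.1% of all genes did). In the 1-allele libraries 6 and 4 did, against 16.1% and 25.7% of other genes. Kat7, the catalytic subunit of the HBO1 complexes that acetylate H3 and H4, had the strongest NICD peaks of all members, with percentiles of 98.3 and 98.9 in wild type, 99.7 and 98.6 in NICD, 93.9 and 76.5 in 1-allele, and 97.8 and 97.9 in 2-allele libraries. Ep300 lay at 99.0 and 97.2, 98.8 and 91.6, 87.9 and 94.5, and 97.3 and 86.3 in the same order. Both were thus near the top of most lists, with Kat7 lower in 1-allele replicate 2.

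Crebbp, the paralogue of Ep300, had percentiles of 89.7 and 89.1 in wild type, 92.1 and 89.5 in NICD and 92.0 and 83.9 in 2-allele libraries, no peak in 1-allele replicate 1 and a peak at 72.8 in replicate 2. The other pair of paralogues, Kat2a and Kat2b, which encode the SAGA acetyltransferases GCN5 and PCAF, differed in the 1-allele libraries, where Kat2a was called in replicate 1 alone (20.2) and Kat2b in both (50.9 and 29.0). Kat6a and Kat6b, the MOZ and MORF acetyltransferases, were each called in 1-allele replicate 1 only, at 64.5 and 7.4. Kat2a, Kat6a and Kat6b were thus missing from 1-allele replicate 2, and Crebbp from replicate 1.

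Kat8 encodes MOF, which acetylates H4K16. Its end peak lay at 21.7 and 36.6 in wild type, 88.2 and 63.8 in NICD, and 71.9 and 89.6 in 2-allele libraries, and it was absent from both 1-allele lists and from the H3K4me3 list of the Arid1a-floxed library (78.9 in wild type and 91.2 in NICD for H3K4me3). Kat5 encodes TIP60, the acetyltransferase of the NuA4 complex, and had percentiles of 43.9 and 42.3 in wild type, 88.8 and 94.0 in NICD, 49.1 and 32.5 in 2-allele libraries and no end peak in 1-allele libraries. The Kat5 call came from the 3′ end of the gene, which lies within 1 kb of an end of Rnaseh2c; at the RefSeq starts of Kat5 itself, a region at chr19:5609361-5610521 was called in all 8 H3K27ac libraries and in the wild-type and NICD H3K4me3 libraries. Kat5 therefore separated the groups through the peak it shares with its neighbour, while the peak at its own start did not separate them.

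Of the class I deacetylases, the catalytic subunits of the large corepressor complexes, Hdac2 was called in all 11 libraries, at 98.3 and 98 in wild type, 98.7 and 96.1 in NICD, 81.1 and 92.9 in 1-allele and 78.2 and 93.4 in 2-allele libraries. Hdac1, which shares those complexes with Hdac2, lay at 85.8 and 49.4, 82.9 and 63.9, in neither 1-allele library, and in 2-allele replicate 2 alone (27.8). Hdac3, the deacetylase of the NCoR and SMRT complexes, lay at 20.3 and 44.2 in wild type, 72.1 and 13.5 in NICD, 47.4 in 2-allele replicate 1 and in no other H3K27ac library. Hdac1 and Hdac3 share an end within 1 kb with Marcksl1 and Rell2, so their end peaks cannot be assigned to a single gene.

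Hdac8, a class I enzyme known for deacetylating cohesin, was the member that separated NICD from wild type. Its start carried peaks at percentiles 65.0 (chrX:102504517-102505359) and 55.4 in the NICD libraries and 9.9 in 2-allele replicate 1, and none in either wild-type, either 1-allele or the other 2-allele library. For H3K4me3 it lay at 12.1 in wild type and 75.8 in NICD with no peak in the Arid1a-floxed library. In the authors' scores the NICD peaks had 8.33-fold and 7.14-fold enrichment with −log10 q of 12.7 and 8.15. The low-CpG promoter printed above lies at this peak.

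Class IIa deacetylases bind MEF2 factors and shuttle between nucleus and cytoplasm. Hdac5 had end peaks at 43.4 and 31.1 in wild type, 62.2 and 7.9 in NICD, 15.2 in 2-allele replicate 1 and in none of the other 3 H3K27ac libraries. Hdac4 and Hdac7 had none, but at their RefSeq starts inside the gene body Hdac4 (chr1:92179539-92180131) was called in both wild-type, both NICD, 1-allele replicate 2 and 2-allele replicate 2. A second region at the Hdac4 start (chr1:92180589-92181405) was called in both NICD libraries and 2-allele replicate 1, so that the start had a peak in all of the 8 but 1-allele replicate 1. Hdac7 (chr15:97830931-97832111) was likewise called in all of the 8 but 1-allele replicate 1. Hdac9 had no H3K27ac peak of either kind in any library, and 2 other H3K4me3 peaks in the NICD library. It was the 1 member of the 47 with no H3K27ac peak in its body or flanks.

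Among the class IIb and IV enzymes, Hdac6, a tubulin deacetylase of the cytoplasm, was called weakly: at 17.4 in wild-type replicate 2, at 63.0 and 9.1 in NICD, in no 1-allele or 2-allele library, and for H3K4me3 at 67.4 in NICD alone. Hdac6 and Hdac8 are both on the X chromosome; of 966 X-linked genes 5.07% separated NICD from wild type and 4.14% NICD from 2-allele glands, against 3.82% and 3.83% of 20665 autosomal genes. Hdac10, a polyamine deacetylase, lay at 78.4 and 82.9, 72.2 and 87.5, 44.3 in 1-allele replicate 2, and 72.6 and 58.3 in the 2-allele libraries. Hdac11, the class IV enzyme, was missing from both 1-allele libraries although its NICD peaks were strong (94.5 and 91.8, with 74.0 and 72.6 in wild type and 35 and 37.4 in 2-allele). These 2 enzymes thus carried stronger peaks than Hdac6 in each library that called all 3.

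The BET readers bind acetylated histones at promoters and enhancers. Brd2 lay at 76.8 and 57.0 in wild type, 89.9 and 84.7 in NICD, 60.1 in 1-allele replicate 1 and 80.9 and 80.3 in 2-allele libraries, with an H3K4me3 end peak in the NICD library alone (51.0). Within its body, chr17:34119957-34121112 at a RefSeq start was called in all 8 H3K27ac libraries and in the wild-type and NICD H3K4me3 libraries. Brd3 had no end peak, and its RefSeq start, in the printed promoter with 37 CpG, lay under a region (chr2:27474753-27475621) called in all 3 H3K4me3 libraries and in every H3K27ac library but those of the 1-allele group. The 2 readers therefore differed at their starts in the 1-allele libraries, where Brd2 was marked in both and Brd3 in neither.

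The 5 KMT2 genes were called in every wild-type, NICD and 2-allele library, as were 34.1% of all genes. Kmt2c and Kmt2d encode the enzymes that place H3K4me1 at enhancers, and Kmt2e is a more distant family member. Kmt2d lay at 91.2 and 93.1, 98.5 and 98, 93.5 and 54.1, and 89.0 and 81.2 in wild-type, NICD, 1-allele and 2-allele libraries, but like Kat5 through its 3′ end, near an end of Prkag1; its RefSeq start was called in 7 of 8, missing from 1-allele replicate 1. Kmt2e lay at 96.7 and 94.2, 98.4 and 97.6, 53.3 and 94.1, and 92.3 and 83.9. Both were among the 3 members with the highest mean NICD percentiles (98.3 and 98, after Kat7 at 99.2).

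Kmt2a and Kmt2b encode MLL1 and MLL2, which methylate H3K4 at CpG-rich promoters. Kmt2a lay at 53.8 and 45.1 in wild type, 81.0 and 54.6 in NICD, 40.3 and 67.7 in 2-allele libraries and was absent from both 1-allele lists and from the Arid1a-floxed H3K4me3 list (84.4 and 85.2 in the other 2). Kmt2b lay at 69.9 and 83.6, 87.2 and 76.3, and 32.9 and 63.5, with 13.4 in 1-allele replicate 2 only, and its H3K4me3 peak was called in all 3 libraries (83.0, 92.7 and 92.8). Kmt2a, with the second richest of the 6 printed promoters, was thus without a 1-allele call.

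Of the demethylases of H3K4 or H3K36, Kdm1a (LSD1), Kdm5b and Kdm5c were called in all 11 libraries. Kdm1a lay at 71.1 and 97.3, 95.7 and 93.9, 73.9 and 92.3, and 91.0 and 87.8 in the 4 genotypes in turn. Kdm5a, which removes H3K4me3 like Kdm5b and Kdm5c, was weaker, at 37.4 and 39.8, 77.4 and 68.4, 2.1 in 1-allele replicate 2 and 48.0 and 66.2. Kdm2b, which brings a PRC1 complex to unmethylated CpG, lay at 29.4 and 30.0 in wild type, 77.2 and 54.3 in NICD, 23.1 in 2-allele replicate 2 and in neither 1-allele library.

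The H3K27 demethylases had few end peaks. Kdm6a (UTX) was called at 76.2 in wild-type replicate 1, 73.9 in NICD replicate 1 and 45 in 2-allele replicate 1, for H3K4me3 at 68.2 in NICD alone, yet its RefSeq start, 1.71 kb inside the gene table's end, had a peak in all 8 H3K27ac libraries and in 2 of the 3 H3K4me3 libraries. The gene's outer end thus gave a call in 3 of 8 H3K27ac libraries and its RefSeq start in 8 of 8. Kdm6b (JMJD3) had no end peak but the most other peaks of any member, 36 over the 8 H3K27ac libraries. They numbered 5 and 5 in wild type, 6 and 5 in NICD, 2 and 1 in 1-allele and 7 and 5 in 2-allele libraries.

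All 5 PRC2 genes were called in each wild-type, NICD and 2-allele library (34.1% of all genes were), as were all acetyltransferase and KMT2 genes. In the 1-allele libraries 4 and 5 PRC2 genes were called, against 16.1% and 25.7% of other genes. The catalytic subunit genes Ezh2 and Ezh1 lay at 93.1 and 92.9, 98.5 and 94.8, 32.2 and 93.2, and 92.7 and 82.7 (Ezh2) and at 90.5 and 95.1, 95.6 and 92.3, 85.7 and 50.4, and 79.5 and 83.6 (Ezh1). Eed, the subunit that reads H3K27me3, lay at 91.9 and 90.1, 99.2 and 96.5, and 96.4 and 92.8 in the other groups, and of the 1-allele libraries in replicate 2 alone (87.5). Suz12, the core scaffold, and Jarid2, an accessory subunit, were called in all 8, and Jarid2 lacked an H3K4me3 end peak in the wild-type and Arid1a-floxed libraries (66.3 in NICD). Eed in 1-allele replicate 1 was thus the single PRC2 gene missing from an H3K27ac list.

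PRC1 genes varied more. The ubiquitin ligase genes Ring1 and Rnf2 were called in all 8 H3K27ac libraries, Ring1 at 91.6 and 85.6, 90.6 and 89.6, 43.1 and 88.9, and 77.6 and 67.5, and Rnf2 at 90.9 and 81.6, 91.1 and 95, 47 and 65.9, and 91.8 and 95.6. The CBX genes, which encode the readers of H3K27me3, were the least marked: Cbx2 was called at 70.4 in NICD replicate 1 and 11.1 in 2-allele replicate 2 only, and Cbx7 in no library. Cbx8 lay at 36.4 in wild-type replicate 1, 66.1 and 63.4 in NICD, and 17.5 and 41.3 in 2-allele libraries, with no 1-allele call. The ligase genes were therefore marked in all groups and the CBX genes in none of the 1-allele libraries.

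At the Cbx7 RefSeq start, chr15:79932150-79932716 was called in wild-type replicate 1, both NICD libraries and all 3 H3K4me3 libraries. Bmi1, a RING-finger partner of the ligases, lay at 8.3 and 27.6 in wild type, 68.5 in NICD replicate 1 only, 34.8 and 1.0 in 1-allele and 82.7 and 47.2 in 2-allele libraries; it shares its start region with Commd3. Of the polyhomeotic genes, Phc1 lay at 85.4 in wild-type replicate 2, 80 and 84.9 in NICD, 45.2 in 1-allele replicate 1 and 62.8 and 49.1 in 2-allele libraries. Phc2 lay at 4.5 and 43.4 in wild type, 41.4 and 51.3 in NICD and 7.9 and 44.2 in 2-allele libraries, with no 1-allele call. Bmi1 was the 1 gene of these with a 1-allele call in both replicates and a missing NICD call.

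Of the 38 members with an end peak in both NICD libraries, 12 were called in 0, 10 in 1 and 16 in both of the 1-allele libraries (31.6%, 26.3% and 42.1%, against 40.2%, 31.1% and 28.8% of 10219 other genes). Their mean NICD percentiles were graded in that order, with medians of 65.3, 84.9 and 93.5, against 65.2, 81.9 and 92.7 for other genes. Of the 19 members with a NICD percentile of at least 90, 13 were called in both 1-allele libraries and 2, Kat5 and Hdac11, in neither (68.4% and 10.5%, against 68.8% and 5.46% of other genes). The Kat5 peak counted here is at the end it shares with Rnaseh2c, and its RefSeq starts had a peak in both 1-allele libraries. Of the 13 below 80, 0 were called in both and 10 in neither (0.0% and 76.9%, against 5.53% and 67.3%). Of the 6 between 80 and 90, 3 were called in both and 0 in neither (50.0% and 0.0%, against 32.2% and 23.3%). The share called in both was thus close to that of other genes in the strongest class, higher in the middle class and lower in the weakest, with few members in the latter classes. The members as a whole had stronger NICD peaks (median percentile 89.8 against 80.4). The 2-allele libraries both called 32 of the 38 (84.2% against 82.0%) and the wild-type libraries 34 (89.5% against 79.2%).

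**Figure D3:**
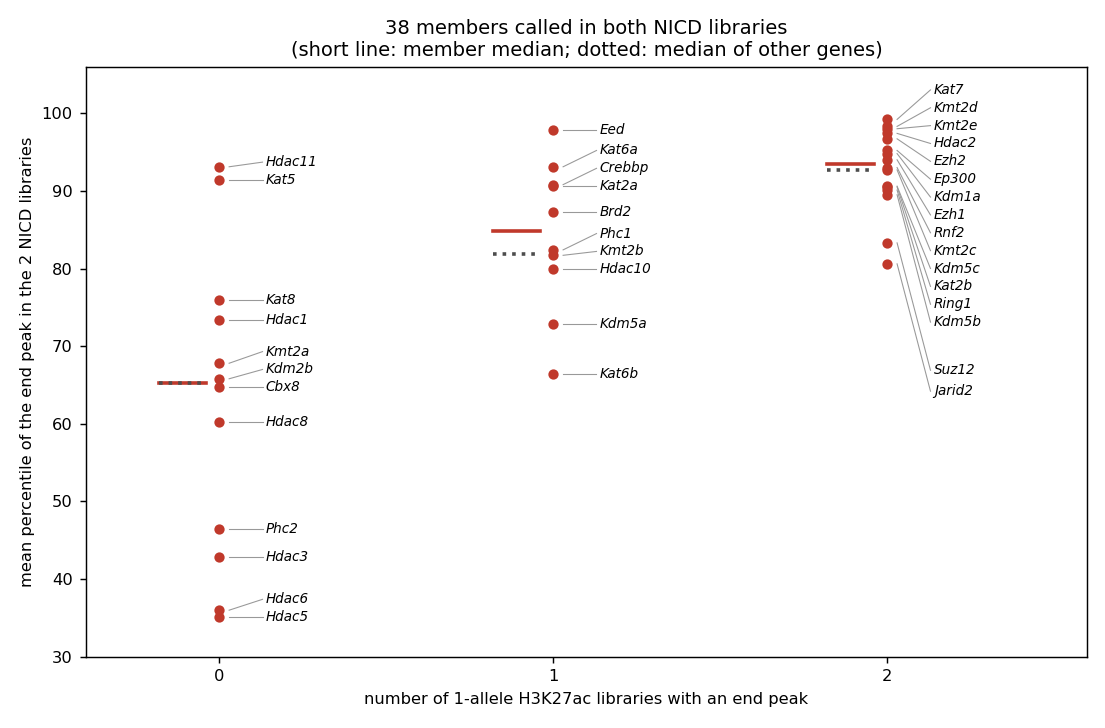
Mean percentile of the end peak in the 2 NICD libraries (vertical axis, starting at 30) for the 38 members called in both, by the number of 1-allele libraries that also called them; each point is 1 gene, the short line is the member median and the dotted line the median of other genes. The medians step from 65.3 through 84.9 to 93.5, and Hdac11 and Kat5 stand high in the left column, Kat5 by the peak at the end it shares with Rnaseh2c.

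For H3K4me3, with 1 library per genotype and no replicate check, 4 members had an end peak in NICD and not in wild type (8.51%, against 16.2% of all genes): Hdac6, Brd2, Kdm6a and Jarid2. At RefSeq starts of Brd2 and Kdm6a the wild-type library had an H3K4me3 peak as well. In NICD and not in the Arid1a-floxed library there were 20 (42.6% against 44.1%), and in wild type and not in the Arid1a-floxed library 16 (34.0% against 28.0%); no member was called in wild type and not NICD (0.0731%), in the Arid1a-floxed library and not NICD (0.00914%) or in the Arid1a-floxed library and not wild type (0.128%). The 21 members kept in the Arid1a-floxed library were the 21 called in all 3. They were 7 of 9 acetyltransferases, 2 of 4 class I, 1 of 4 class IIa and 1 of 3 class IIb or IV deacetylases. The rest were 2 of 5 KMT2 genes, 3 of 5 H3K4 or H3K36 demethylases, 4 of 5 PRC2 genes and 1 of 8 PRC1 genes, Ring1. Neither BET reader and neither H3K27 demethylase was among them. In this single library 19.4% of other genes had an end peak. Cbx7, a PRC1 gene not counted here, had a peak at its RefSeq start in it. Each of the 41 members with any H3K4me3 end peak was called in the NICD library, as were 99.9% of other genes with one. The NICD list was the longest of the 3.

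The 16 members with an H3K4me3 end peak in wild type and NICD alone ranged from 8 (Cbx8) to 90.5 (Rnf2) in the wild-type list. In the NICD list they ranged from 70.9 (Kdm2b) to 97.4 (Kat5). Among the enzymes, Kat5 lay at 74.3 in wild type and 97.4 in NICD, Kmt2d at 89.6 and 97.2, Kmt2e at 54.9 and 71, Hdac3 at 51.6 and 79.9, Hdac10 at 55.8 and 97, Kdm2b at 62.3 and 70.9 and Kdm5a at 52.8 and 91.8. Among the PRC1 genes, Rnf2 lay at 90.5 and 95, Bmi1 at 71.7 and 71.3, Cbx2 at 48.9 and 81.1, Cbx8 at 8 and 73.2, Phc1 at 45.1 and 79.5 and Phc2 at 35.5 and 92.3. Strong end peaks such as those of Rnf2 and Kmt2d were thus missing from the Arid1a-floxed list beside weak ones such as Cbx8. That list held 5175 peaks. The Kmt2d and Kat5 end peaks are those at their 3′ ends, for Kat5 the end it shares with Rnaseh2c. At the RefSeq starts of Kmt2d and Kdm2b the Arid1a-floxed library did have an H3K4me3 peak.

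Away from the gene ends the members also held more peaks per gene than other genes. Other H3K27ac peaks per member averaged 1.46 ± 0.092 in wild type, 2.44 ± 0.71 in NICD, 0.479 ± 0.11 in 1-allele and 1.27 ± 0.078 in 2-allele glands (SD, n = 2 each), against 0.916 ± 0.080, 1.60 ± 0.54, 0.260 ± 0.076 and 0.708 ± 0.042 per other gene. The ratio of members to other genes was 1.60, 1.52, 1.84 and 1.79. These counts were not divided by the length of the locus, and the part of gene length in the ratios was not tested. The NICD libraries (2.94 and 1.94 per member) were above both wild-type libraries (1.53 and 1.40), which were above both 2-allele libraries (1.32 and 1.21), and the 1-allele libraries (0.404 and 0.553) were the lowest. The group means differed by 0.97 peaks per member between NICD and wild type, -1.96 between 1-allele and NICD, -1.17 between 2-allele and NICD, and 0.79 between 2-allele and 1-allele glands. By gene, 2 members, Ep300 and Kat2a, had other peaks in both NICD libraries alone against wild type (4.26%, against 5.55% of all genes), 8 against the 1-allele group (17%, against 23.3%), 3 against the 2-allele group (6.38%, against 8.41%), and 3 had them in both 2-allele libraries alone against the 1-allele group (6.38%, against 10.9%). No member went the reverse way (0.233%, 0.0366%, 0.0411% and 0.26% of all genes). With lists of 5165 peaks the differences in peaks per member were 0.02, -0.11, -0.06 and 0.04, so that little of each difference was present at equal list length.

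**Figure D4:**
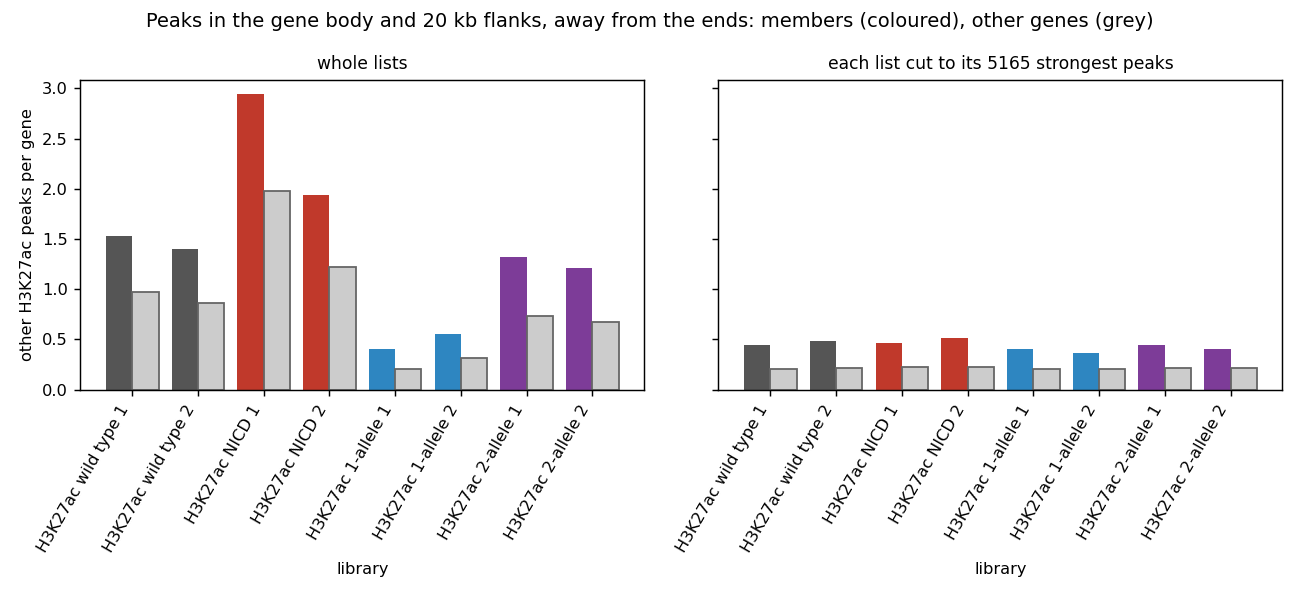
Other H3K27ac peaks per gene (gene body and 20 kb flanks, away from the ends) in the 8 libraries, for members (coloured by genotype) and other protein-coding genes (grey). With whole lists (left) the libraries run from 0.404 to 2.94 per member, and with each list cut to 5165 peaks (right) from 0.362 to 0.511, with members above other genes in both.

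The other peaks merged into 153 regions, of which 12 were called in all 8 libraries (7.84%, against 5.61% of 31619 such regions over all genes), 108 overlapped an H3K4me3 peak (70.6% against 54.5%) and 47 lay within 1 kb of a RefSeq start of some gene. Regions that both NICD libraries called and no wild-type library did numbered 21 (13.7% against 13.4%), at 15 members, and 1 went the other way, in the body of Cbx7 at chr15:79927365-79927645 (0.541% of all regions). Towards NICD, 48 separated it from 1-allele glands (31.4% against 29.5%) and 20 from 2-allele glands (13.1% against 15.8%), with 0 in the reverse directions (0.0474% and 0.0822%). Between the Arid1a groups, 16 were in both 2-allele libraries alone (10.5% against 8.95%) and 1 in both 1-allele libraries alone, in the body of Jarid2 at chr13:44869448-44869703 (0.234%). The shares at member loci were again close to those over all loci, and without NICD replicate 2 the 3 counts towards NICD rose to 66, 104 and 71.

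Kdm2b held the most other peaks over both NICD libraries, tied with Kmt2b in replicate 1. Its other peaks numbered 3 and 2 in wild type, 9 and 9 in NICD, 0 and 1 in 1-allele and 3 and 4 in 2-allele libraries. Regions in its body at chr5:122910910-122911746, chr5:122911859-122912422 and chr5:122965057-122965686 were called for H3K27ac in both NICD libraries and in none of the other 6. A region at its inner RefSeq starts (chr5:122899412-122900919) was called in every H3K27ac library but 1-allele replicate 1, and in the wild-type and NICD H3K4me3 libraries. A flanking region (chr5:122850086-122850855) was called in all 11 libraries. Hdac4, with 1 and 1, 6 and 5, 0 and 1, and 2 and 1 other peaks, had regions at chr1:92180589-92181405, beside its start, and chr1:92214967-92215405, upstream, in both NICD libraries and 2-allele replicate 1 only among the 8. Both genes thus had more regions in NICD than in any other group.

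The locus with most peaks, Kdm6b, did not follow that pattern. Its body regions at chr11:69408980-69409596, chr11:69409675-69411197 and chr11:69417849-69418815 were called in every wild-type, NICD and 2-allele library, the last 2 also in 1-allele replicate 1. Kmt2b held 3 and 3, 9 and 4, 0 and 0, and 3 and 4 other peaks, all in the flanks and most at the ends of neighbouring genes. Brd3 held 3 and 3, 5 and 4, 1 and 0, and 5 and 4, Phc2 5 and 6, 7 and 2, 0 and 1, and 3 and 1, and Hdac1 3 and 3, 6 and 4, 0 and 1, and 3 and 4. In these 4 no other library held fewer than the 1-allele libraries.

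The covered length of other peaks, per Mb of covered length in its library, was tested for each gene across the 4 genotypes by an exact permutation test over all ways to pair the 8 libraries, with Benjamini-Hochberg adjustment over 12205 genes. By this exact test 0 of the 38 members tested, and 0 of all genes (0.0%), had an adjusted p under 0.05, the smallest being 0.17. An adjusted p under 0.05 could arise only if a large share of genes reached the smallest possible p, 0.00952. The absence of passing genes therefore does not show that no locus differed. Unadjusted, 5 members were under 0.05, as were 2560 genes (21.0%). Kdm2b, with 149.0 and 85.2 bp per Mb in wild type, 298.0 and 370.0 in NICD, 0.0 and 77.6 in 1-allele and 239.0 and 283.0 in 2-allele libraries, gave an exact p = 0.00952, the smallest possible (adjusted p = 0.17, n = 2 per group). Cbx2 and Kat2b gave the same p and adjusted p. For Cbx2 the NICD libraries were highest (50.4 and 58.9) and the 1-allele libraries at 0, and for Kat2b the 1-allele libraries were highest (151.0 and 192.0, against 47.8 and 72.7 in NICD). The Cbx2 regions called in both NICD libraries, chr11:119040576-119041072 and chr11:119041206-119041515, lie at the start of Cbx8, another member. They are therefore not separate from the Cbx8 end peak. The Kat2b region called in all 8 libraries, chr17:53689276-53690234, lies in the flank, 105.6 kb from the Kat2b start and near another gene's RefSeq start. The order for Kat2b rests on the division by covered length, which was 1.44 and 2.83 Mb in 1-allele and 20.11 and 10.39 Mb in NICD libraries: in plain base pairs its other peaks were longer in both NICD than in both 1-allele libraries.

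The wider machinery was read from 108 partner genes in 4 lists: subunits and readers around the acetyltransferases (33), the deacetylase complexes (23), methyltransferase and demethylase complexes (29) and Polycomb (23). End peaks were called at 94 and 91 of the 108 in wild type, 102 and 97 in NICD, 47 and 61 in 1-allele and 95 and 89 in 2-allele libraries. Of all other genes, 16.1% (1-allele replicate 1) to 52.9% (NICD replicate 1) had one. Towards NICD, 3 of the 108 separated it from wild type (3.83% of all genes did), 28 from 1-allele glands (18.8%) and 2 from 2-allele glands (3.8%). Between the Arid1a groups, 19 were called in both 2-allele and neither 1-allele library (12% of all genes). In the 4 reverse directions 0 separated (0.114%, 0.00914%, 0.0228% and 0.0411% of all genes, in the same order). In the 1-allele libraries 16.1% and 25.7% of other genes had an end peak. There the acetylation partners had 16 and 20 calls of 33 and the deacetylation partners 11 and 14 of 23. The methylation and demethylation partners had 14 and 14 of 29, and the Polycomb partners 6 and 13 of 23. The lowest share was thus that of the Polycomb list in replicate 1 and of the methylation and demethylation list in replicate 2. As at the members, the NICD libraries held the most calls and the 1-allele libraries the fewest.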

How the data were processed

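The submitters' processing notes name Bowtie2 as the aligner, MACS2 as the peak caller and GRCm38 (mm10) as the build. MACS 2.0.10.20131216 made 9 of the 11 lists, per the file headers, from single libraries without a control library, keeping 1 read per position, at a q-value of 0.05 and with a background window of 10 kb. For every peak of these 9 the authors give the pileup signal at its summit, −log10 values of p and q, and its fold over the library's own background. Both deposited 2-allele lists hold peak positions only; their threshold and depth are not given in the sources used here, and they were read as BED intervals. The protocol in the labels names an H3K27ac antibody for all libraries.

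Peaks were set against the protein-coding genes of a RefSeq table without strand (GRCm38) and, where a member had an entry, against RefSeq starts, with Python 3.11.15, numpy 2.4.6, pandas 2.3.3 and scipy 1.17.1. Lists were ordered by q-value, then fold, or by file order where unscored. The permutation script was tested on simulated data. The members, lists, motifs and tests were chosen with earlier results of these data known. Values in every library were given for members that separated NICD from wild type or from 2-allele glands, up to 6 per role that separated the 1-allele group, the 6 with most other peaks, those with no H3K27ac end peak or with H3K4me3 in some libraries, and any past the permutation test; other members were added for their role after their values were seen. Alternatives were other windows and flanks, peak midpoints, equal list lengths, −log10 q of at least 3, RefSeq starts (added after seeing the data) and leaving out each library. A missing call is not a missing mark.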

Additional observations from a re-analysis of the deposited data

How the results depend on the processing

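With a 2.5 kb window, peak midpoints or −log10 q of at least 3 (not run with the unscored 2-allele lists), the counts of members separating stayed within 1.5 times those reported. With every list at 5165 peaks, members separating fell to 2 (NICD, not 1-allele) and 1 (2-allele, not 1-allele) and rose to 2 (NICD, not 2-allele); other peaks per member differed by 0.02 (NICD and wild type), -0.11 (1-allele and NICD), -0.06 (2-allele and NICD) and 0.04 (2-allele and 1-allele), and regions separating numbered 2, 3, 3 and 4. At 14373 peaks in the wild-type, NICD and 2-allele lists members separating were 0 (NICD, not wild type), 1 (wild type, not NICD) and 0 (NICD, not 2-allele), the differences were 0.12 and, with its sign turned, 0.01 (2-allele and NICD), and regions were 6 and 3. The cause was not tested. RefSeq starts gave 2 (NICD, not 2-allele). With 5 kb flanks other peaks differed by -1.0 (1-allele and NICD) and 0.34 (2-allele and 1-allele), and without peaks at ends of other genes the latter was 0.37.

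Leaving out a library loosens the rule to a single library, so counts can only rise: 1 to 3 (NICD, not wild type; 3 without wild-type replicate 2), 12 to 17 (NICD, not 1-allele), 1 to 4 (NICD, not 2-allele; 4 without 2-allele replicate 1), 9 to 11 (2-allele, not 1-allele), and 0 to 1 in 3 reverse directions, the 1 coming without NICD replicate 1. Other peaks differed by 0.47 to 1.47, -2.46 to -1.46, -1.67 to -0.67 and 0.71 to 0.86, and regions by 25 to 66, 52 to 104, 24 to 71 and 20 to 28. In the permutation test 0 members passed in every alternative (smallest adjusted p 0.0692 to 0.522 over all genes), with 1 to 15 members under an unadjusted 0.05. With the replicate block (24 arrangements) 0 passed and 3 were under an unadjusted 0.05. The smallest p of that test lies just under 0.05, so an adjusted p under 0.05 was hardly reachable. In the other settings too a pass needed many genes at the smallest p, so the lack of passes carries little weight. The labels do not say that a number pairs samples. Depth is unknown for the 2-allele libraries and was lowest in NICD replicate 2.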

Other observations

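The peak at an outer end and the peak at a RefSeq start answered differently for several members. Of the 38 members with a RefSeq strand, 28, 28, 31, 29, 19, 17, 29 and 27 had a peak at the 5′ end in the 8 H3K27ac libraries, in the order wild type, NICD, 1-allele and 2-allele, and 1 to 3 had a peak at the 3′ end. The 3′ calls were at Kat5 (8 of 11 libraries), Kmt2d (10 of 11) and Kat2a (3 of 11). Of the 47 members, 17 (36.2%) have an end within 1 kb of an end of another protein-coding gene, against 24.8% of other genes.

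Of the 12 regions away from member ends that all 8 H3K27ac libraries called, 3 lay in member bodies: at Brd2 (chr17:34119957-34121112), Kat5 (chr19:5609361-5610521) and Kmt2e (chr5:23434433-23435293). The other 9 lay in the flanks of Bmi1, Cbx8, Eed, Hdac3, Hdac5, Kat2b, Kdm2b, Kmt2a and Phc1, most of them at the ends of neighbouring genes.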
